A study of Mus musculus with 10 samples.

Results

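Aminoacyl-tRNA synthetases were examined in a mouse brain endothelial cell line treated with a protease of mucin-domain glycoproteins. Members were taken by name: every row of the expression table whose gene name was a single letter followed by ars, with or without a final 1 or 2, and in addition Eprs, Farsa and Farsb. This gave 37 genes of the 27024 rows with a gene name, of which 20 encode cytosolic enzymes and 17, with names ending in 2, mitochondrial ones. All 37 had a mean of at least 1 FPKM (fragments per kilobase of exon, on the submitters' own scale between samples) and were among the 11062 genes tested. The rule used names alone and no measured value.

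A synthetase joins an amino acid to its matching tRNA, the step that fixes the genetic code before an amino acid reaches the ribosome. Cytosol and mitochondria mostly use separate enzymes from separate nuclear genes, although Gars and Kars each encode both forms and the mitochondrion makes its glutamine-charged tRNA by another route. Eprs carries the glutamyl and prolyl enzymes in 1 chain, and Farsa and Farsb are the subunits of 1 cytosolic phenylalanyl enzyme. Many cytosolic synthetase genes are known targets of ATF4, the transcription factor that raises amino acid synthesis and uptake when amino acids run short.

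Bulk RNA-seq was available for 10 samples of wild-type bEnd.3 cells, an immortalized endothelial line from mouse brain. In 5 samples (replicates 1 to 5) the growth medium held saline, and in 5 (replicates 1, 2, 3, 5 and 6) it held 5 nM StcE, a bacterial protease that cuts mucin-domain glycoproteins, for 16 h. An inactive-enzyme control was not analysed here, so the comparison is of the added enzyme preparation with saline. The labels do not say whether samples were separate cultures, so p-values measure the spread among these samples.

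The 10 endothelial markers summed to 1718 to 1861 FPKM with saline and 1627 to 1718 FPKM with StcE, and 6 of them passed the test as lower (Tek, Flt1, Tie1, Erg, Pecam1 and Esam). Summed markers of astrocytes reached at most 0.115 FPKM in any sample and those of microglia and macrophages at most 0.109 FPKM. The neuronal markers summed to 1.91 to 2.73 FPKM with saline and 2.52 to 3.23 FPKM with StcE. Nearly all of these sums was Tubb3, which was higher after StcE. Rbfox3, Snap25 and Syt1 reached at most 0.00681 FPKM in any sample. Pericyte and smooth muscle markers stood at 2.06 to 5.10 and 2.66 to 4.52 FPKM, and fibroblast markers at 1.20 to 1.43 and 1.19 to 1.51 FPKM. Most of the former was Acta2 and most of the latter Pdgfra. The remaining markers of both lists were under 1 FPKM in every sample. The part of these shifts in the results below was not tested. In bulk RNA, fewer cells expressing a gene and less of its RNA per cell cannot be told apart.

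After StcE, 3 of the 20 cytosolic genes rose and none fell. These were Rars (arginyl enzyme), Cars (cysteinyl enzyme) and Farsa (catalytic subunit of the phenylalanyl enzyme). None of the 17 mitochondrial genes passed the test. Across all 11062 genes tested, 11.9% passed the threshold, 5.52% as higher and 6.41% as lower. The 3 calls, all higher, were 8.11% of the 37 members and 15.0% of the 20 cytosolic ones. No test set these shares against the rest of the table. The test was limma on log2(FPKM + 1) with Benjamini-Hochberg adjustment over all genes tested and a threshold of 0.05.

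Rars, in the synthetase complex of the cytosol, had the highest level of any member. Its FPKM was 112.0, 112.3, 108.7, 111.6 and 111.2 in saline replicates 1 to 5 and 120.8, 125.3, 120.8, 125.5 and 118.2 in StcE replicates 1, 2, 3, 5 and 6. Every StcE sample lay above every saline sample. The mean went from 111.2 ± 1.44 to 122.1 ± 3.15 FPKM (SD, n = 5 each), which was 9.85% higher. The log2 fold change was 0.13 (SE 0.0222; limma adjusted p = 0.00288). The gene lies at chr11:35808381-35834506 on the minus strand (GRCm38), no other annotated exon overlapped its exons, and 8262 to 14186 fragments per sample stood behind the values.

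Cars, which acts outside the complex, had FPKM of 21.5, 21.9, 20.3, 21.9 and 21.3 with saline and 24.9, 23.3, 24.1, 23.9 and 22.3 with StcE. The groups did not overlap, the closest pair being saline replicate 4 and StcE replicate 6. Its mean rose from 21.4 ± 0.660 to 23.7 ± 0.979 FPKM (SD, n = 5 each), or 10.7%, with a log2 fold change of 0.14 (SE 0.0321; limma adjusted p = 0.0172). Cars lies at chr7:143557230-143600090 on the minus strand, where Gm15580 covers a small part of its exons from the other strand.

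Farsa lies at chr8:84856989-84869257 on the plus strand. Its FPKM was 22.7, 23.3, 22.65, 22.9 and 23.4 with saline and 25.2, 24.0, 25.4, 24.3 and 24.1 with StcE. All StcE samples were again above all saline samples, with StcE replicates 1 and 3 the highest. The mean rose from 23.0 ± 0.342 to 24.6 ± 0.655 FPKM (SD, n = 5 each), or 6.96%, with a log2 fold change of 0.09 (SE 0.0235; limma adjusted p = 0.0268). This call was lost without any 1 of saline replicates 1, 3 and 4 and StcE replicates 1 and 3, with limma adjusted p from 0.0528 to 0.0693, while the difference stayed between 0.08 and 0.10 on the log2 scale whichever sample was left out.

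Farsb, the partner subunit of Farsa, gave 44.7, 45.5, 45.7, 45.9 and 46.5 FPKM with saline and 45.4, 46.2, 44.4, 46.2 and 44.4 FPKM with StcE. These ranges overlapped, and the log2 fold change was -0.01 (95% interval -0.06 to 0.04; limma adjusted p = 0.789). The ratio of Farsa to Farsb therefore went from 0.504 ± 0.00616 to 0.543 ± 0.0215 (SD, n = 5 each), and all 5 StcE ratios lay above all 5 saline ratios. An exact two-sided permutation test of the ratio gave p = 0.00794, the smallest that 5 samples against 5 allow. Groups that do not overlap always give this p. Adjusted over the 4 ratios tested it was 0.0317 (exact permutation test). These ratios were chosen after the values of the called genes had been seen. Of Farsb's exons, 9.47% overlap Sgpp2 on the other strand, and the sources used here do not state whether counting used strand.

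Tars, the threonyl enzyme of the cytosol, was the fourth gene whose groups did not overlap. It measured 19.8, 18.9, 19.5, 19.9 and 19.2 FPKM with saline and 20.2, 21.2, 20.4, 20.2 and 20.1 FPKM with StcE. Its difference did not pass the threshold over all genes (log2 fold change 0.07, 95% interval 0.01 to 0.12; limma adjusted p = 0.0920). The exact permutation test of Tars alone gave its smallest possible p of 0.00794. Groups that do not overlap always give that p, so it adds nothing to the lack of overlap. Of all genes tested, 4.85% had every StcE sample above every saline sample and 5.80% every StcE sample below; among the 20 cytosolic members these counts were 4 and 0, and among the 17 mitochondrial members both were 0.

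**Figure D1:**
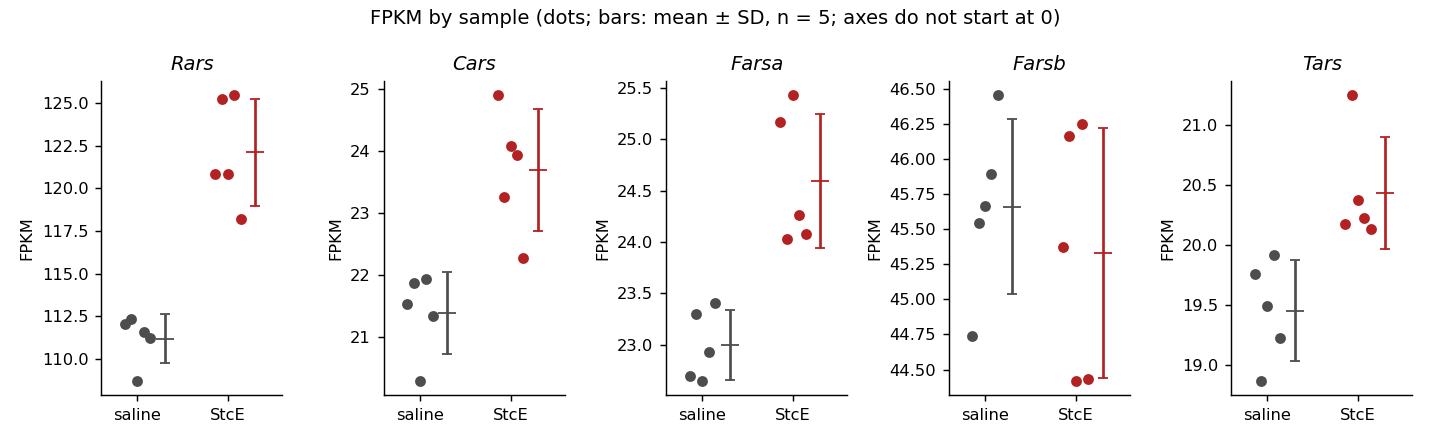
FPKM (vertical axes, which do not start at 0) of Rars, Cars, Farsa, Farsb and Tars in each of 5 saline (grey) and 5 StcE (red) samples of bEnd.3 cells, with bars at the mean ± SD. The StcE dots lie above all saline dots for Rars, Cars, Farsa and Tars, whereas those of Farsb overlap.

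The other 16 cytosolic genes besides Tars did not pass the test, and their levels differed little between groups. Gars, the glycyl enzyme, averaged 80.7 ± 0.973 FPKM with saline and 84.1 ± 2.35 FPKM with StcE (SD, n = 5 each; limma adjusted p = 0.123). Eprs had the lowest log2 fold change of the compartment, -0.09, with means of 14.8 ± 0.561 and 13.9 ± 0.690 FPKM (SD, n = 5 each; limma adjusted p = 0.153). Counting Tars, 9 of the 17 genes without a call had a higher mean log2 value after StcE and 8 a lower one.

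The 95% intervals of those 17 differences ran from -0.17 at the lowest bound, that of Eprs, to 0.13 at the highest, that of Mars (methionyl enzyme). A p that misses the threshold does not show that a gene was equal in both groups. Over all 20 cytosolic genes the median log2 fold change was 0.01, beside -6.6e-04 over all genes tested, and their summed FPKM was 794 ± 8.22 with saline and 812 ± 17.4 with StcE (SD, n = 5 each), with overlapping samples. At an unadjusted limma p under 0.05, 6 cytosolic and 3 mitochondrial members passed, 9 of 37, where 27.8% of all genes tested did.

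The called genes came from both structural classes and from inside and outside the synthetase complex. Of the 8 genes in the complex (Dars, Eprs, Iars, Kars, Lars, Mars, Qars and Rars), Rars alone was called, and of the 12 outside it Cars and Farsa were. Class I, whose catalytic domain is a Rossmann fold, had 2 calls among 9 genes, and class II, with an antiparallel sheet instead, had 1 among 10. Eprs, which holds an enzyme of each class, was counted in neither. No difference between these subsets was tested.

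**Figure D2:**
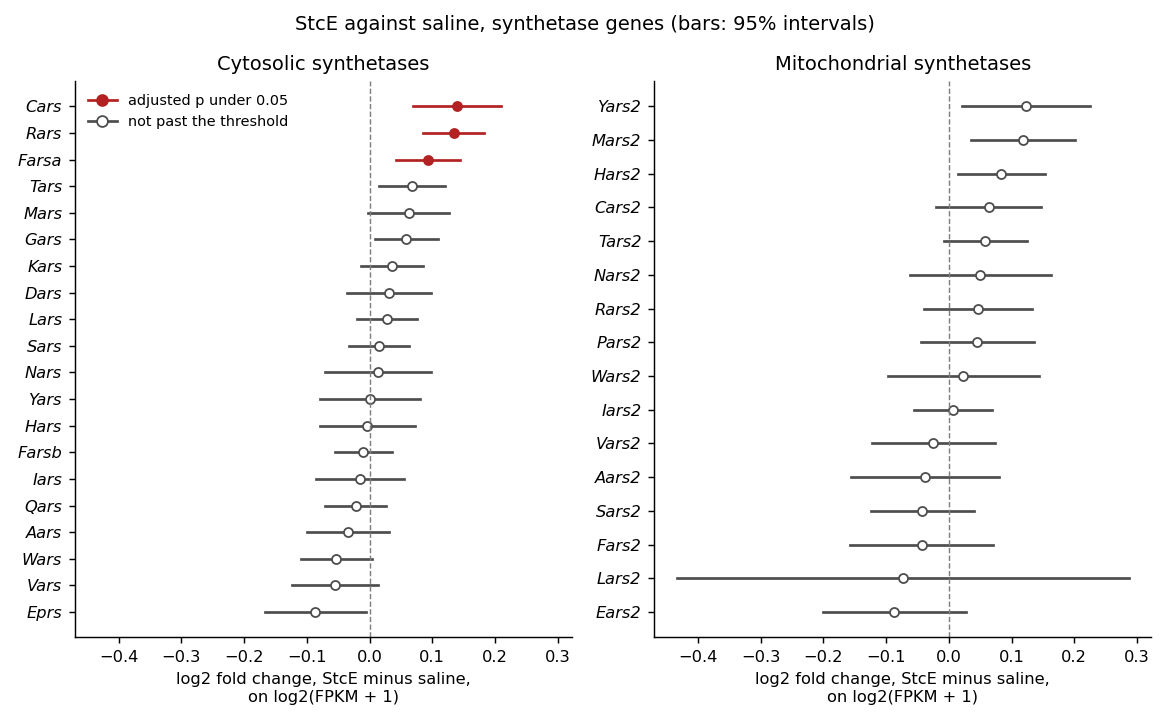
Log2 fold change (StcE minus saline, on log2(FPKM + 1), horizontal axis) of 20 cytosolic and 16 mitochondrial synthetase genes, with 95% intervals from limma as bars; filled red points passed the threshold. The called genes are Cars, Rars and Farsa, and Lars2 has the widest interval, from -0.43 to 0.29.

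In the mitochondrial set, 10 genes had a higher mean and 7 a lower mean after StcE, with a median log2 fold change of 0.02. Mars2, the mitochondrial methionyl enzyme, had the smallest adjusted p. Its FPKM was 3.47, 3.56, 3.53, 3.90 and 3.42 with saline and 3.98, 3.95, 4.22, 3.91 and 3.78 with StcE. Saline replicate 4 lay within the StcE range and the other saline samples below it. The log2 fold change was 0.12 (SE 0.0376; limma adjusted p = 0.0641), and without saline replicate 4 the limma adjusted p was 0.0291. Yars2 and Hars2, the tyrosyl and histidyl enzymes, also passed at an unadjusted p under 0.05, with log2 fold changes of 0.12 and 0.08 (limma adjusted p = 0.112 for each).

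Ears2, the glutamyl enzyme of the mitochondrion, had the lowest log2 fold change of the set, -0.09, with a 95% interval of -0.20 to 0.03 (limma adjusted p = 0.307). At the other end of the level scale from Lars2, Nars2 (asparaginyl) was the lowest member of all. It measured 1.56, 1.83, 1.72, 1.93 and 1.84 FPKM with saline and 2.04, 1.90, 1.65, 1.95 and 1.85 FPKM with StcE, from 309 to 476 fragments per sample. The samples overlapped, and the interval of its log2 fold change was -0.06 to 0.16. Leaving Lars2 aside, the 95% intervals of the mitochondrial set ran from -0.20, for Ears2, to 0.22, for Yars2.

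Lars2, the mitochondrial leucyl enzyme, was the highest mitochondrial member and the most variable of all 37. It measured 50.0, 31.4, 31.8, 36.3 and 26.3 FPKM with saline and 24.7, 36.0, 32.4, 42.5 and 29.9 FPKM with StcE. Saline replicate 1 and StcE replicate 5 were the highest samples, 1 in each group. The means were 35.1 ± 9.01 and 33.1 ± 6.66 FPKM (SD, n = 5 each; limma adjusted p = 0.812), with coefficients of variation of 25.6% and 20.1%, where no other member exceeded 8.59% with saline or 9.79% with StcE. Lars2 lies at chr9:123366927-123462666 on the plus strand, with no annotated exon of another gene on its exons. No stretch at least 95% identical over at least 150 bases was found for its 11089 annotated exon bases in transcripts of other genes. Shorter stretches, and sequence outside annotated transcripts, were not searched, so sharing of that kind is not known for Lars2.

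The level of Lars2 moved with that of Gm23935, a short gene annotated as a miRNA that had the highest mean FPKM in the table, looked up after the Lars2 values were seen. On the log2 scale Pearson's r was 0.91 (permutation p = 0.00038) and Spearman's rho 0.79 (permutation p = 0.00902) over the 10 samples. Without saline replicate 1 and StcE replicate 5, the samples farthest from the median of Gm23935, r was 0.71 (n = 8). Within saline it was 0.95 and within StcE 0.99. The pair was picked after the values were seen, and among 11057 genes whose correlation with Lars2 was computed Gm23935 ranked 2, below Msl2 (r = 0.91), so its p-values carry no correction for that search and are given as a description. The other 36 members had correlations with Gm23935 between -0.48 and 0.48.

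**Figure D3:**
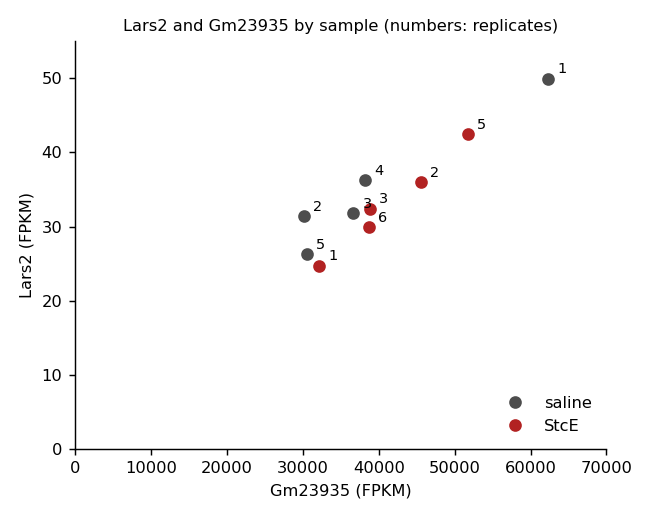
Lars2 (FPKM, vertical axis) against Gm23935 (FPKM, horizontal axis) in 5 saline (grey) and 5 StcE (red) samples, numbered by replicate. Both are highest in saline replicate 1, where Lars2 was 50.0 FPKM, and next highest in StcE replicate 5, where it was 42.5 FPKM.

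Per kilobase of exon, most cytosolic genes were expressed at higher levels than their mitochondrial partners. The mean FPKM of cytosolic genes with saline ranged from 10.0 to 111.2 with a median of 33.1, and that of mitochondrial genes from 1.78 to 35.1 with a median of 4.57. The lowest cytosolic gene was Yars, the tyrosyl enzyme, with 10.5, 9.97, 9.89, 10.1 and 9.69 FPKM after saline and 10.3, 10.3, 9.99, 10.4 and 9.09 FPKM after StcE. Those samples overlapped throughout, and the limma adjusted p was 0.996.

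In order of mean level over all samples the cytosolic genes were Rars, Gars, Vars, Kars, Nars, Hars, Farsb, Mars, Wars, Sars, Lars, Iars, Farsa, Dars, Cars, Aars, Tars, Qars, Eprs and Yars. Of the 19 neighbouring pairs in that order, 6 overlapped among the saline samples. The order, and the ratios between compartments below, depend on annotated exon length as well as on fragments. Eprs had 5512 to 9123 fragments per sample over 18102 exon bases, and Gars 5703 to 9263 over 3119. Without 1 gene that is not reported by name, the mitochondrial order was Lars2, Iars2, Yars2, Rars2, Tars2, Vars2, Sars2, Hars2, Mars2, Aars2, Fars2, Pars2, Cars2, Wars2, Ears2 and Nars2, and over the whole set 10 of 16 neighbouring pairs overlapped among the saline samples.

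For 14 amino acids the enzymes of both compartments carried the same letter. The cytosolic gene had the higher FPKM in every sample for 12 of them, with a median ratio of 7.95 over the 14 pairs with saline. The ratio was highest for asparagine, where Nars exceeded Nars2 31.9-fold. The exceptions were leucine, with a mean Lars to Lars2 ratio of 0.898 ± 0.204, and tyrosine, with a mean Yars to Yars2 ratio of 1.04 ± 0.0445 (SD, n = 5 saline samples each).

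In 7 of the 14 pairs the cytosolic gene had the higher log2 fold change after StcE. The rise in Rars and Cars was not accompanied by a called change in the ratio to the mitochondrial partner. Rars to Rars2 went from 14.2 to 15.0 (exact permutation p = 0.0794, adjusted over the 4 ratios 0.106) and Cars to Cars2 from 8.82 to 9.17 (exact permutation p = 0.238, adjusted 0.238). Farsa to Fars2 went from 7.47 to 8.32 (exact permutation p = 0.0714, adjusted 0.106). Samples of the groups overlapped in all 3 ratios.

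**Figure D4:**
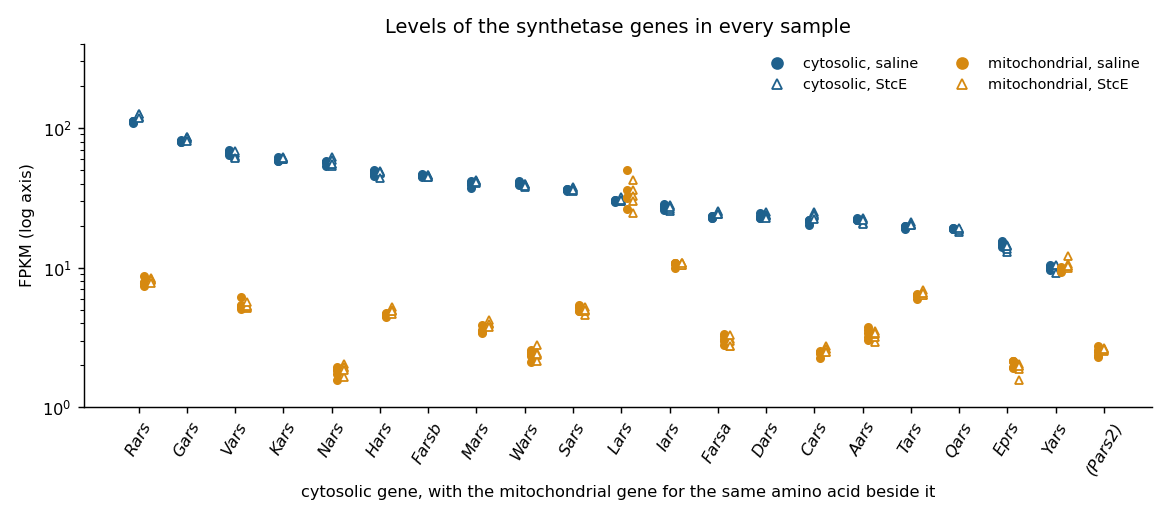
FPKM on a log axis of each cytosolic synthetase gene (blue) and of 16 mitochondrial genes (orange), beside the gene for the same amino acid, in 5 saline (circles) and 5 StcE (triangles) samples; Fars2 stands beside Farsa, Ears2 beside Eprs and Pars2 by itself. Cytosolic genes lie above the partners drawn in every sample except for leucine and tyrosine.

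Some of the members share sequence with other genes, which bears on how far their levels can be read. By the same limits, all annotated transcripts of the 37 genes were searched, and 14 genes shared a stretch with a transcript of another gene. Rars, Farsa, Tars and Gars were not among them, while 3.25% of the exon bases of Cars were shared with Gm15580. The longest shares were 42.0% of the exon bases of Iars, with Gm4849, and 22.9% of those of Iars2, with Rab3gap2. Exons of Rab3gap2 overlap those of Iars2 on the other strand, so the latter share is not a copy elsewhere. Exons of 14 members overlapped exons of another gene on the other strand, among them Mars with Ddit3, and those of 1 member, Aars, overlapped Exosc6 on the same strand. Shares and overlaps are not separate counts. Cars with Gm15580, Aars with Exosc6, Hars with Hars2 and Farsb with Sgpp2 were among the pairs that entered both. So were Vars2 with Gm20483, Fars2 with Nrn1, Cars2 with Naxd and Nars2 with C230038L03Rik. Shares of such pairs need not be copies elsewhere, whereas exons of Iars and Gm4849 did not overlap. Levels of the members in either count are uncertain to that extent.

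Promoters were searched for the C/EBP-ATF response element, the site through which ATF4 and its partners act on amino acid genes, as TGATGNAA on either strand (TTNCATCA when read in reverse) in the 250 bases before the RefSeq start on GRCm38.p6. Of the 27 members matched in the RefSeq table, Aars, Gars and Tars held a match (11.1%), beside 3.45% of all 32851 promoters. Neither Rars nor Cars was matched. The 120 bases before the start are shown for Farsa, the 1 called member with a promoter in the table, and for Gars and Tars, whose element lies within them. Capitals mark the element.
Farsa (chr8:84856866-84856985, plus strand): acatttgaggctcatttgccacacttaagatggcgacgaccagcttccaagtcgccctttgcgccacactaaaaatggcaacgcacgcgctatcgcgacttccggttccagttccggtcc
Gars (chr6:55037881-55038000, plus strand): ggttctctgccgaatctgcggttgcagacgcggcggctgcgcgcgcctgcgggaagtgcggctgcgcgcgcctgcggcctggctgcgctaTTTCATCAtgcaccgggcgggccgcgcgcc
Tars (chr15:11399659-11399778, minus strand): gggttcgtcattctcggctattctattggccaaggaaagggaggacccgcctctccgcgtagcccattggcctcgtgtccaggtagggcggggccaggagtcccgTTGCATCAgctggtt

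Farsa held no such letters in this window. A match is a description of the letters and not of binding, and no relation between the element and the response to StcE was tested.

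Genes of the ATF4 programme outside the synthetases were listed for comparison. Of 17 tested, 8 rose (47.1%, beside 5.52% of all genes tested) and 0 fell, with a median log2 fold change of 0.11. Atf4 itself went from 64.8 ± 1.54 to 77.1 ± 2.72 FPKM (SD, n = 5 each; log2 fold change 0.25, limma adjusted p = 2.4e-04), and Asns, asparagine synthetase, from 20.3 ± 1.12 to 24.0 ± 0.757 FPKM (SD, n = 5 each; log2 fold change 0.23, limma adjusted p = 0.00256). The next by size were Vegfa, an angiogenic growth factor, and Psph, the last enzyme of serine synthesis, each with a log2 fold change of 0.21. By sample, 7 of the 17 had every StcE value above every saline value and 1 had every StcE value below. That gene was Sesn2, a stress-induced inhibitor of mTORC1 signalling, at 11.8 ± 0.295 FPKM with saline and 10.7 ± 0.671 FPKM with StcE (SD, n = 5 each; log2 fold change -0.13, limma adjusted p = 0.0526). Cebpb, a transcription factor of the C/EBP family, also had a lower mean (log2 fold change -0.14, limma adjusted p = 0.395). This list was drawn up with results of these samples known, and 4 of its 19 genes matched to promoters held the element (Asns, Chac1, Nupr1 and Pycr1). The difference between this list and the synthetases was not tested.

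Of 10 amino acid transporters tested, Slc1a5, which carries glutamine and other neutral amino acids, rose from 18.9 ± 0.738 to 22.3 ± 0.737 FPKM (SD, n = 5 each; log2 fold change 0.23, limma adjusted p = 9.9e-04), and no other passed. That 1 call was 10.0% of the transporters, and the 1 call among the scaffolds below was 33.3% of 3 genes, beside 5.52% of all genes tested called higher. Among the 3 scaffold proteins of the synthetase complex, Eef1e1 rose from 8.70 ± 0.209 to 9.91 ± 0.257 FPKM (SD, n = 5 each; log2 fold change 0.17, limma adjusted p = 0.00217). The other scaffolds, Aimp1 and Aimp2, had log2 fold changes of 0.05 and 0.08 (limma adjusted p = 0.199 and 0.179). No gene passed among 6 tested genes of editing, transamidation, formylation and the third threonyl enzyme, 5 cytosolic elongation factors or 3 mitochondrial ones, of which 2, 1 and 0 had an unadjusted limma p under 0.05.

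**Figure D5:**
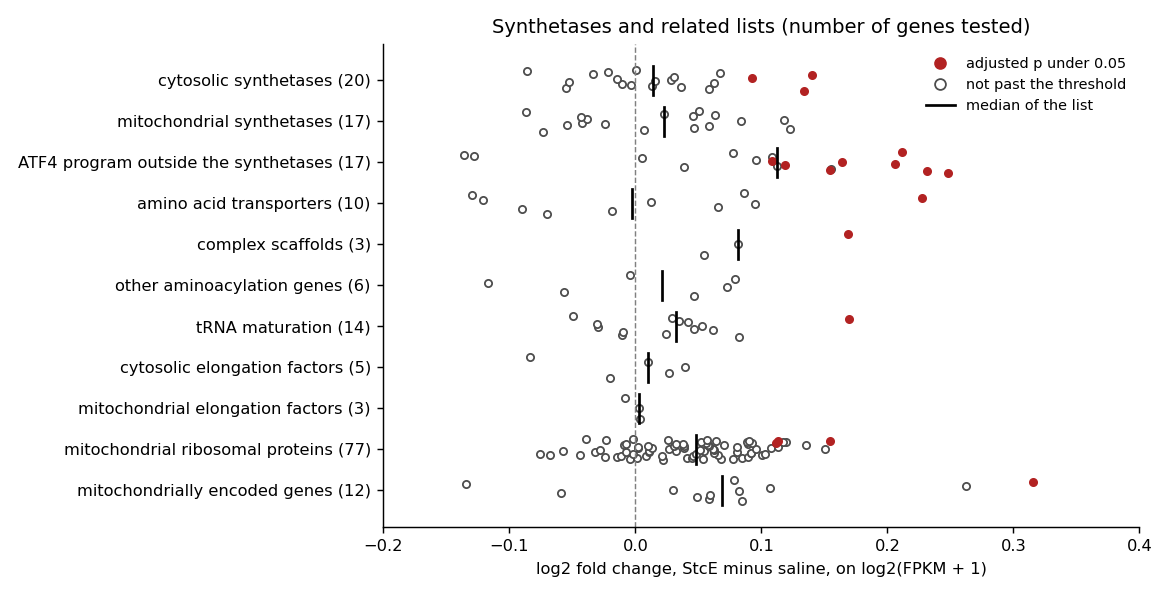
Log2 fold change (StcE minus saline, on log2(FPKM + 1), horizontal axis) of each tested gene in the 2 synthetase sets and 9 related lists; red points passed the threshold and black bars mark list medians. The ATF4 programme has 8 red points and a median of 0.11, beside 3 red points and a median of 0.01 for the cytosolic synthetases.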

How the data were processed

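Bulk RNA-seq of 10 samples was used. Per the submitters' processing notes the authors used HISAT2 2.0.5, featureCounts 1.5.0-p3 and DESeq2 1.32.0, and they deposited FPKM on GRCm38, 1 column per sample. The annotation release is not given in the sources used here, and 22874 rows held no gene name and were left out. FPKM are not counts, so limma 3.58.1 (R 4.3.3; lmFit and eBayes with trend) was run on log2(FPKM + 1) for genes averaging 1 FPKM or more, with adjustment over all of them. Fold changes on this scale understate those of low genes. Single values were tested by exact two-sided permutation over all arrangements of the samples.

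Whole fragments were recovered from FPKM and GENCODE vM21 exon lengths for 26704 names matched once: 96.7% of values above 0 were whole within the larger of 0.05 fragments and 1e-05 of the value, as were 34 of 37 members in every sample. Totals were 22175476 to 29356530 fragments with saline and 22146619 to 33546696 with StcE. Near-identical stretches of all annotated transcripts of the members were sought with blastn 2.17.0. Figures were drawn in Python 3.11.15.

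All members entered the counts, and 1 is not reported here by name. Values per sample are given for called members, for the highest and lowest of each compartment, and for Tars, Farsb and Mars2, picked after their values were seen. Of related lists, called genes are named, at most 4 by size; Sesn2, Cebpb, Aimp1, Aimp2 and Msl2 were named after their values were seen. Members and lists were chosen with earlier results of these data known. Simulations of this comparison changed 200 of 11062 genes, fewer than the 1320 called in the samples. In these simulations a log2 change of 0.1 was recovered for 0 genes, 0.2 for 102 and 0.5 for 187. Replicate numbers shared by the groups (1, 2, 3 and 5) were checked for pairing. Alternatives numbered 19 planned and 3 added.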

Additional observations from a re-analysis of the deposited data

Results flagged for a closer look

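Within-group gaps were examined for all 37 members in both groups, 74 in all, of which chance alone flags about 1 in 20. Flags numbered 2, fewer than the 3.7 that chance alone would give. Tars in StcE replicate 2 stood at 21.2 FPKM, apart from 20.1 to 20.4 FPKM in the other StcE samples. Iars2, the mitochondrial isoleucyl enzyme, stood at 9.86 FPKM in saline replicate 2, apart from 10.6 to 10.9 FPKM in the other saline samples.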

How the results depend on the processing

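Of 811 values of single members under the 22 alternatives, 773 kept their direction and side of the threshold. The call of Rars held in all 22 (limma adjusted p 0.00128 to 0.0445), that of Cars in 21 and that of Farsa in 15. Of the 1320 genes past the threshold (611 higher, 709 lower), no filter on low FPKM gave 801 (392 and 409). Scaling by the median ratio left 1320 (611 and 709), so that alternative was almost the main fit again. Scaling by total fragments gave 1300 (666 and 634). Leaving out 1 sample gave 793 to 1257 (384 to 590 higher, 409 to 667 lower), lowest without StcE replicate 3 and 837 without saline replicate 1 (428 lower). It gave 2 to 4 cytosolic calls, Gars joining without StcE replicate 6, and 0 to 1 mitochondrial. Mars2 made the 1 mitochondrial call without saline replicate 4, under array weights (1) and, among alternatives chosen after seeing the data, with voom on recovered fragments (1) and in the 8 samples that carry shared numbers, fitted unpaired (1). Scaling by total fragments, also added, gave 4 cytosolic calls, adding Tars. The medians of the compartments turned below 0 without StcE replicate 2 (cytosolic, -2.4e-03) and without saline replicate 2 (mitochondrial, -8.0e-03).

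The replicate block over the 8 samples with shared numbers gave 352 genes (187 higher, 165 lower) and 1 cytosolic call, Rars; Cars and Farsa had limma adjusted p of 0.0600 and 0.173. The same 8 samples without the pairing gave 452 lower calls. Samples with the same number correlated between -0.10 and 0.05 in their deviations, and none correlated best with its own number. The labels do not say whether same-numbered samples were handled together, so whether they were paired is not known. Hars (log2 fold change -3.4e-03) turned positive under upper quartile scaling (1.2e-03), array weights (8.2e-04), total fragments (5.4e-03), and 0.039 both under the block and without the pairing. Leaving out 1 sample also turned the sign of Yars (-0.013 to 0.032), Hars (-0.019 to 0.023), Lars2 (-0.17 to 0.059), Wars2 (-0.013 to 0.052), Iars (-0.031 to 3.0e-03), Nars (-0.017 to 0.033), Iars2 (-0.016 to 0.016) and Vars2 (-0.045 to 0.015), none of them called. The cause of these changes was not tested. In simulated data of this spread with 200 changed genes, a log2 change of 0.1 was not recovered, so changes of that size can be missed. The samples gave 1320 calls, so the adjusted threshold was stricter in the simulation. Farsa was called in the samples at 0.09, so the simulation does not set the smallest change that can be called.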

Other observations

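Genes of mitochondrial translation outside the synthetases gave few calls. Of 77 mitochondrial ribosomal protein genes tested, 3 rose after StcE (Mrpl33, Mrps25 and Mrps9, with log2 fold changes of 0.15, 0.11 and 0.11 and limma adjusted p of 0.0304, 0.0344 and 0.0286) and 0 fell, which is 3.90% beside 11.9% of all genes tested. Their median log2 fold change was 0.05, and 60 of the 77 had a higher mean. Of 12 mitochondrially encoded genes tested, mt-Atp6, a subunit of ATP synthase, rose from 16.6 ± 1.94 to 20.9 ± 2.66 FPKM (SD, n = 5 each; log2 fold change 0.32, limma adjusted p = 0.0457), and 0 fell. This 1 call was 8.33% of that list, beside 5.52% of all genes tested called higher. The mt-Atp6 level was far below the saline means of mt-Co1 (2427 FPKM), mt-Cytb (1326 FPKM) and mt-Nd1 (1270 FPKM). Low saline means were also measured for mt-Co2 (22.7 FPKM), mt-Co3 (16.0 FPKM) and mt-Nd3 (2.80 FPKM). The cause of these low values was not tested, so the mt-Atp6 rise is in a small signal. Of 14 genes of tRNA maturation tested, Pop1, a protein of the enzyme that trims the leading end of tRNA precursors, rose from 12.2 ± 0.852 to 13.8 ± 0.386 FPKM (SD, n = 5 each; log2 fold change 0.17, limma adjusted p = 0.0246), and 0 fell. That 1 call was 7.14% of its list, close to the 5.52% of all genes tested that were called higher.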
